A study of Mus musculus with 70 samples.

Results

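The genes described here are the SR proteins (Srsf genes), the heterogeneous nuclear ribonucleoproteins (Hnrnp genes), the CLK kinases and the Tra2 proteins of the mouse hippocampus. They were chosen by symbol: every listed gene named Srsf followed by a number, every name that starts with Hnrnp, Clk1 to Clk4, Tra2a and Tra2b, without pseudogenes. The rule uses symbols alone, but the families were picked with earlier results of these data known. It gave 37 of the 14260 genes in the table, namely 11 Srsf, 20 Hnrnp, 4 Clk and 2 Tra2 genes.

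The samples were hippocampi of 69 mice. APP23 transgenic mice (TG, B6.Cg-Tg(Thy1-APP)3Somm/J) carry a mutant human APP under the Thy1 promoter, which drives it in neurons, and were compared with non-transgenic littermates (NTG). Mice on time-restricted feeding (TRF) had food for 6 h a day, between Zeitgeber time (ZT) 15 and ZT21, and the others ate ad libitum (ALF). All mice were singly housed under 12 h of light, with lights on at ZT0 and off at ZT12. Mice entered TRF aged 6 to 9 months and were killed aged 10 to 13 months. There were 18 TG mice on TRF, 19 TG on ALF, 16 NTG on TRF and 16 NTG on ALF. The numbers at ZT0, ZT6, ZT12 and ZT18 were 6, 4, 5 and 3 in TG on TRF, 6, 4, 6 and 3 in TG on ALF, 6, 2, 6 and 2 in NTG on TRF, and 7, 1, 6 and 2 in NTG on ALF. The replicate was the animal, named where needed by group and number (as in NTG ALF-1), and no sample's sex is given.

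SR proteins bind exons of a transcript being spliced and recruit the splicing machinery, while hnRNP proteins coat the transcript and often repress the use of nearby exons. CLK kinases phosphorylate SR proteins in the nucleus, and in mammalian cells CLK1 and CLK4 are more active at the lower end of the body temperature range, so that splicing follows the daily temperature cycle. Many of these genes also make transcripts with a poison exon or a retained intron, which lower their own output through nonsense-mediated decay (NMD).

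Depth, tissue and genotype were checked over all libraries. Estimated reads ran from 27.9 to 47.1 M per library (median 37.2 M). All 7 markers of hippocampal neurons were in the table, and none was at 0 in any animal. Thy1, whose promoter drives the transgene, was between 101986 and 171318 normalized counts in TG mice and between 14727 and 29068 in NTG mice. The summed level of 12 choroid plexus markers varied widely within each time, for example between 7227 and 224419 normalized counts at ZT12 and between 7116 and 296486 at ZT0. All 11 animals of ZT6 and all 10 of ZT18 have numbers in the 300s, as have only 2 of ZT0 and 1 of ZT12, so differences of ZT6 or ZT18 from ZT0 or ZT12 cannot be told apart from a difference between number series. In bulk tissue, fewer cells of a type and less RNA per cell cannot be told apart.

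Per length of exon, the members lay between the 38.2th and the 96.8th percentile of the genes of the table. Hnrnpa2b1 was the highest, with 2704 normalized counts per kb of exon. Hnrnpa1, a shuttling repressor of exons, followed with 2642 per kb, and Hnrnpa0, a single-exon relative, with 2196 per kb. Clk2 was the lowest with 139 per kb, below Hnrnph3 with 149 per kb and Hnrnpr with 158 per kb. Among the kinases, Clk1 was highest with 543 per kb, then Clk4 with 354 and Clk3 with 219. Tra2a had 352 and Tra2b 275 per kb. In the GENCODE M21 annotation, 25 of 37 members (67.6%) have a transcript marked for NMD, against 28.1% of the 13148 protein-coding genes of the table. A retained-intron transcript is annotated for 28 of 37 (75.7%), against 57.9%. Gene-level counts do not separate such transcripts.

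Some members share sequence with other genes. A near-identical transcript of another gene exists for 11 members, most of all for Hnrnpa3 (25 genes), Hnrnpa1 (9), Hnrnpf (6) and Tra2b (4), and reads could be split between them. Exons of Srsf4 overlap those of Gm12992 over 43.0% of their length, those of Hnrnpab overlap Phykpl over 29.1%, and those of Srsf2 overlap Mettl23 over 15.6%, all on the opposite strand. The strand used in counting is not given in the sources used here, so these values may include reads of the partner. Hnrnpm shares 14.7% of its exon length with Marchf2 on the same strand.

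Time of sacrifice moved most of the genes. In limma's moderated F test over the 4 times, adjusted for group, 25 of 37 members passed an adjusted p of 0.05 (Benjamini-Hochberg over all genes), against 35.6% of all genes. By family, 7 of 11 Srsf, 14 of 20 Hnrnp, 2 of 4 Clk and 2 of 2 Tra2 genes passed. The median distance between the highest and the lowest time was 0.19 on the log2 scale for the members and 0.20 for all genes. Of the 25 that passed, 14 were highest at ZT18 (56.0%), 6 at ZT6, 3 at ZT0 and 2 at ZT12. Of all genes that passed, 24.7% were highest at ZT18. ZT0 was the time of the highest level in 30.0% of those genes, ZT6 in 22.8% and ZT12 in 22.5%. Among the members that passed, 14 were lowest at ZT0 (56.0%), against 32.1% of all genes that passed. Most of the 5 libraries of lowest correlation are of ZT0, and the times of the lowest level were not counted without them. Tra2a had the widest distance (0.65, adjusted p = 1.02e-08), then Clk1 (0.57, adjusted p = 8.87e-05), Hnrnpdl (0.47, adjusted p = 7.35e-09), Hnrnpm (0.39, adjusted p = 6.81e-06) and Srsf10 (0.38, adjusted p = 1.99e-06). The distances of Tra2a (ZT18 to ZT12), Clk1 (ZT18 to ZT0) and Hnrnpdl (ZT6 to ZT0) cross number series. Those of Hnrnpm and Srsf10 (both ZT18 to ZT6) do not.

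**Figure D1:**
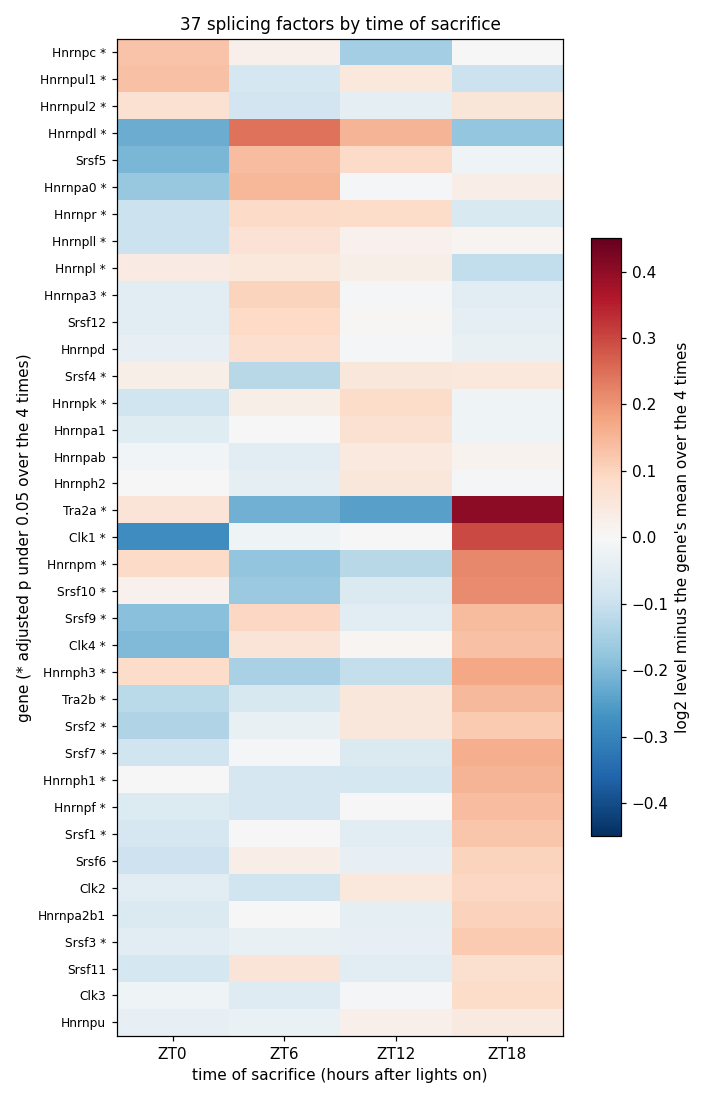
Colour gives each of the 37 genes' log2 level at ZT0, ZT6, ZT12 and ZT18, adjusted for group, minus the gene's mean over the 4 times; rows are ordered by the time of the highest level and stars mark adjusted p under 0.05 over the 4 times. The longest block is that of genes highest at ZT18, from Tra2a down, and 14 of the starred genes lie in it.

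At lights off against lights on (ZT12 against ZT0), 16 of 37 members changed, 11 higher and 5 lower, against 27.9% of all genes called (14.4% higher and 13.6% lower). Hnrnpc fell most clearly and Hnrnpdl rose most clearly. The median change was 0.05 over the members and 0.00 over all genes. Taken without sign, it was 0.085 over the members and 0.100 over all genes. The larger share called thus did not come with larger changes. The 16 members had the same sign in each of the 4 groups taken alone, as had 91.6% of all called genes, and these groups are part of the fit that called them. Without the 5 libraries of lowest correlation, 12 members were called, of which 10 are among the 16 and 2 are not (Hnrnpu and Hnrnph1).

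Among the kinases, Clk1, which phosphorylates SR proteins, ranged between 3438 and 5907 normalized counts at ZT12 (median 4456, n = 23) and between 1961 and 5637 at ZT0 (median 3902, n = 25). It rose by 0.28 ± 0.08 (log2, SE; adjusted p = 0.00588), and the times overlapped widely. Clk4, its close relative, ranged between 1614 and 2569 at ZT12 (median 2112) and between 1245 and 2374 at ZT0 (median 1848). It rose by 0.21 ± 0.06 (adjusted p = 0.00693), again with overlap. Clk2 had a change of 0.10 ± 0.09 (adjusted p = 0.425), with medians of 781 at ZT12 and 698 at ZT0. Clk3 had a change of 0.01 ± 0.04 (adjusted p = 0.873), with medians of 1869 and 1833 at the same times. Neither passed the test. Without the 5 libraries of lowest correlation, 4 of which are of ZT0, Clk1 had a change of 0.21 (adjusted p = 0.0541) and Clk4 of 0.14 (adjusted p = 0.0696).

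The Tra2 proteins, which bind purine-rich exonic enhancers, moved in opposite directions. Tra2a (chromosome 6, 49243924 to 49264033, minus strand, GRCm38) ranged between 1438 and 2676 normalized counts at ZT12 (median 2115) and between 1832 and 3535 at ZT0 (median 2486). It fell by 0.30 on the log2 scale (SE 0.06, adjusted p = 0.000197), with overlap between the times. Tra2b (chromosome 16, 22244549 to 22266005, minus strand) ranged between 2351 and 3176 at ZT12 (median 2590) and between 1663 and 2989 at ZT0 (median 2318). It rose by 0.17 ± 0.04 (adjusted p = 0.00252), and its times overlapped too.

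Of the SR proteins, Srsf2 and Srsf5 rose and none fell. Srsf2, which helps define exons, had medians of 5162 at ZT12 and 4674 at ZT0 and rose by 0.19 ± 0.04 (adjusted p = 0.000728). Srsf5 had medians of 8323 and 6873 at these times, with a low of 2472 at ZT0, and rose by 0.29 ± 0.10 (adjusted p = 0.0303). Its call ended when 1 of 3 ZT0 animals was left out: the change was 0.24 (adjusted p = 0.0572) without NTG ALF-1, 0.25 (adjusted p = 0.0590) without TG ALF-16 and 0.25 (adjusted p = 0.0579) without TG ALF-5. It also ended without the 5 libraries of lowest correlation (0.10, adjusted p = 0.436), with array weights (0.17, adjusted p = 0.0822), with animals of ZT0 and ZT12 only (0.29, adjusted p = 0.0622) and without animals numbered from 300 (0.29, adjusted p = 0.0908). The other 9 Srsf genes had changes between -0.09 and 0.14.

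Among the hnRNP genes, Hnrnpc, a binder of uridine tracts (chromosome 14, 52073377 to 52104028, minus strand), ranged between 5867 and 7798 normalized counts at ZT12 (median 6553) and between 6730 and 9822 at ZT0 (median 8178). It fell by 0.28 on the log2 scale (SE 0.03, adjusted p = 1.72e-09), and the times overlapped in the stretch between 6730 and 7798. Hnrnpdl, a binder of AU-rich sequences (chromosome 5, 100033577 to 100039664, minus strand), ranged between 5595 and 7761 at ZT12 (median 6718) and between 3496 and 7089 at ZT0 (median 5156). It rose by 0.38 ± 0.05 (adjusted p = 2.42e-07), with overlap. Hnrnpk, a binder of cytosine-rich RNA, had medians of 11229 at ZT12 and 10130 at ZT0 and rose by 0.17 ± 0.03 (adjusted p = 7.67e-05). Hnrnpr, which travels with transcripts into axons, had medians of 3670 and 3273 and rose by 0.18 ± 0.04 (adjusted p = 0.000113). Hnrnpm, a repressor that binds GU-rich RNA, had medians of 4193 and 4924 and fell by 0.21 (SE 0.05, adjusted p = 0.00108). Hnrnpul2, a relative of Hnrnpu, had medians of 9360 and 10022 and fell by 0.11 (SE 0.03, adjusted p = 0.00340). The remaining calls were Hnrnpll (0.12, adjusted p = 0.00928), Hnrnph3 (-0.19, adjusted p = 0.0128), Hnrnpa1 (0.12, adjusted p = 0.0199) and Hnrnpa0 (0.16, adjusted p = 0.0330). Hnrnpa0 was not called without NTG ALF-107 (0.13, adjusted p = 0.0603), NTG TRF-232 (0.14, adjusted p = 0.0569) or TG TRF-104 (0.15, adjusted p = 0.0555), nor with choroid plexus and myelin levels as covariates (0.13, adjusted p = 0.0646) or without animals numbered from 300 (0.14, adjusted p = 0.0787). Without the 5 libraries of lowest correlation, the calls of Hnrnpa0 (0.11, adjusted p = 0.148), Hnrnpll (0.07, adjusted p = 0.112) and Hnrnpul2 (-0.07, adjusted p = 0.0668) ended.

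Markers of vessels and some of other cells moved at the same times. All 5 endothelial markers were lower at ZT12 than at ZT0 (median change -0.57), and their summed level ranged between 1964 and 4617 normalized counts at ZT12 (median 3452) and between 2161 and 7011 at ZT0 (median 5187), with none at 0. None of the 12 choroid plexus markers passed (median change -0.60). Called lower were 2 of 5 markers of microglia, 2 of 5 of meninges and 1 of 2 of oligodendrocyte precursors. So were 1 of 5 of astrocytes and 1 of 7 of hippocampal neurons. Called higher were 1 of 5 markers of inhibitory neurons and 1 of 8 of oligodendrocytes and myelin. The part of these cells in the changes of the splicing factors was not tested. Within animal numbers below 100 (7 animals at ZT12 and 8 at ZT0) and within the 100s (12 and 11), all 16 members had the direction of the pooled result, as had 98.5% and 99.9% of all called genes. These animals are part of the fit that called the genes, so the agreement is not independent of it. Hnrnpa0 had only 0.01 (SE 0.07) in the series below 100. Within the 200s (3 and 4), 12 members had the pooled direction, against 73.5% of the called genes. Hnrnpdl had -0.02 there, against 0.54 and 0.40 in the other 2 series. The other sign was also that of Srsf5 (-0.17, SE 0.09), Hnrnpr (-0.06, SE 0.10) and Hnrnpa1 (-0.03, SE 0.09).

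**Figure D2:**
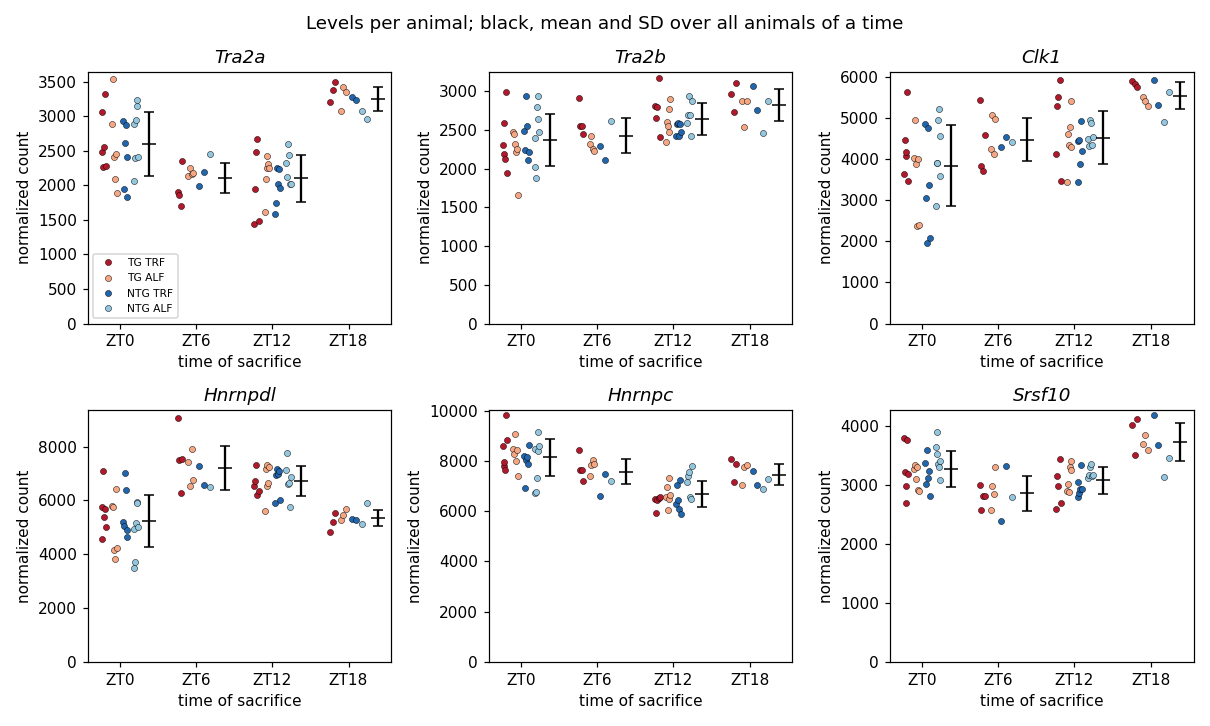
Normalized count per animal of 6 genes at 4 times, coloured by group, with a black mark for the mean and SD over all animals of a time. Hnrnpdl lies at or below 5919 in every ZT18 animal and at or above 6266 in every ZT6 animal, and Tra2a lies at or above 2958 at ZT18 and at or below 2449 at ZT6.

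The promoters of Tra2a, Hnrnpc and Hnrnpdl are shown as examples. Hnrnpc fell and Hnrnpdl rose most clearly at ZT12 against ZT0, and Tra2a had the widest distance between times. The sequences are from RefSeq (GRCm38.p6, 250 bases before to 50 after the start, minus strand), with matched motifs in capitals.
Tra2a, chr6:49264003-49264302: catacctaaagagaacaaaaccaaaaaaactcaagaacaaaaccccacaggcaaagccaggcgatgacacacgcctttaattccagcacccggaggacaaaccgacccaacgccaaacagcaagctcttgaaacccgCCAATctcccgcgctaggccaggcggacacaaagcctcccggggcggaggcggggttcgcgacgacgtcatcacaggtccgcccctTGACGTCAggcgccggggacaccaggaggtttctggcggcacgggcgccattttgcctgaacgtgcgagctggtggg
Hnrnpc, chr14:52103972-52104271: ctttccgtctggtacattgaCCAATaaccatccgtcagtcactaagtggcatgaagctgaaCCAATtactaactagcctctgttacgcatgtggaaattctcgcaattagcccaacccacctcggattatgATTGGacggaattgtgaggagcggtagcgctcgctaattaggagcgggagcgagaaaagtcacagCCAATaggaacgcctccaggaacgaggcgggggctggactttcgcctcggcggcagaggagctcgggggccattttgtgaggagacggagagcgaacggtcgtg
Hnrnpdl, chr5:100039173-100039472: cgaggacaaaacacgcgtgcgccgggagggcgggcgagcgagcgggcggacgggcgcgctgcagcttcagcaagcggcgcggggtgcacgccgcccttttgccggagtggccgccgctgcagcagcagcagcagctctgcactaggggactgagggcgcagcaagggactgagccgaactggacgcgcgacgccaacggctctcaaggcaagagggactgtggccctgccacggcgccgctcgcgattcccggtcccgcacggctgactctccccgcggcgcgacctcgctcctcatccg
The motifs searched, on both strands, were GAANNTTC and TTCNNGAA for heat shock elements, CACGTG, TGACGTCA, TTATGTAA, TTACGTAA and CCAAT. Tra2a has TGACGTCA, the cyclic AMP response element, 27 bases before the start and 1 CCAAT, and Hnrnpc has 4 CCAAT boxes, 1 of them on the other strand. In RefSeq the Tra2a gene begins at 49264248 on the minus strand, so its TGACGTCA lies inside the gene. In GENCODE the gene begins at 49264033, and the element lies before it. Hnrnpdl has none of the motifs in the window shown. That window lies inside the annotated gene, which begins at 100039664 on the minus strand. The sequence before that outer start was not searched. Of the 34 members with a promoter entry, 2 have TGACGTCA (5.88%), against 3.46% of 11019 genes of the table. CCAAT is in 19 members (55.9%), against 42.5%, and CACGTG in 6 (17.6%), against 11.5%. GAANNTTC is in 5 (14.7%; Hnrnpa2b1, Hnrnpf, Hnrnpl, Srsf9 and Tra2b), against 6.93%. TTATGTAA is in 0 members and 0.726% of the genes, TTACGTAA in 1 (2.94%, Hnrnpa2b1) and 0.191%, and TTCNNGAA in 2 (5.88%) and 8.13%. These matches are descriptions of letters and do not show binding.

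At mid-dark against mid-light (ZT18 against ZT6), 12 of 37 members changed, 9 higher and 3 lower, against 8.04% of all genes called (4.27% higher and 3.77% lower). Both times come from the same animal number series. The median change was 0.07 over the members and 0.00 over all genes. Taken without sign, it was 0.141 and 0.097 in that order. For 3 members the times did not overlap: Tra2a and Hnrnpm were higher in every ZT18 animal, against 0.407% of all genes, and Hnrnpdl was lower in every one, against 0.161%.

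Tra2a ranged between 2958 and 3490 normalized counts at ZT18 (median 3256, n = 10) and between 1701 and 2449 at ZT6 (median 2163, n = 11). It rose by 0.62 ± 0.10 (adjusted p = 4.90e-06), with no overlap. Tra2b ranged between 2463 and 3102 at ZT18 (median 2873) and between 2109 and 2920 at ZT6 (median 2428), and rose by 0.22 ± 0.07 (adjusted p = 0.0297). Its times overlapped. Clk1 ranged between 4889 and 5917 at ZT18 (median 5566) and between 3695 and 5424 at ZT6 (median 4421). Its change of 0.32 ± 0.12 did not pass the test (adjusted p = 0.0933), nor did those of Clk2 (0.18 ± 0.14, adjusted p = 0.484), Clk3 (0.14 ± 0.06, adjusted p = 0.1495) or Clk4 (0.07 ± 0.09, adjusted p = 0.707).

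Srsf10, a repressor of splicing when dephosphorylated, as after heat shock, ranged between 3140 and 4179 at ZT18 (median 3691) and between 2390 and 3328 at ZT6 (median 2813). It rose by 0.38 ± 0.06 (adjusted p = 3.52e-06), with a small overlap. Srsf4 had medians of 2132 at ZT18 and 1884 at ZT6 and rose by 0.17 ± 0.05 (adjusted p = 0.0239). The other 9 Srsf genes did not pass.

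Hnrnpdl ranged between 4844 and 5919 at ZT18 (median 5303) and between 6266 and 9080 at ZT6 (median 7278), with no overlap, and fell by 0.42 on the log2 scale (SE 0.08, adjusted p = 0.000381). Hnrnpm ranged between 4819 and 5507 at ZT18 (median 5287) and between 3307 and 4624 at ZT6 (median 4172), also with no overlap. It rose by 0.39 ± 0.08 (adjusted p = 0.000276). The G-tract binders Hnrnph3 (0.32 ± 0.09, adjusted p = 0.0139), Hnrnpf (0.21 ± 0.06, adjusted p = 0.0207) and Hnrnph1 (0.23 ± 0.07, adjusted p = 0.0214) rose, while Hnrnph2, of the same H/F family, had 0.03 ± 0.05 (adjusted p = 0.768). Hnrnpl, a binder of CA repeats, had medians of 5385 at ZT18 and 6230 at ZT6 and fell by 0.16 (SE 0.05, adjusted p = 0.0258). Hnrnpul2 had medians of 9979 and 9117 and rose by 0.14 ± 0.04 (adjusted p = 0.0365). Hnrnpa3 had medians of 5133 and 5976 and fell by 0.15 (SE 0.05, adjusted p = 0.0485). Several calls are near the threshold and ended when 1 animal was left out. For Hnrnpa3 that held for 40 of the 69 animals (adjusted p between 0.0501 and 0.116). For Hnrnpul2 it held for 10, namely NTG TRF-326 and TRF-312, TG ALF-314, ALF-329, ALF-310 and ALF-332, and TG TRF-302, TRF-305, TRF-330 and TRF-307 (adjusted p between 0.0540 and 0.0942). For Tra2b these were NTG TRF-313 and TRF-312, TG ALF-303 and ALF-329, and TG TRF-330 (adjusted p between 0.0513 and 0.0686). For Srsf4 they were NTG ALF-325 and ALF-328, NTG TRF-312, TG ALF-310 and TG TRF-330 (adjusted p between 0.0505 and 0.0715). For Hnrnpf they were TG ALF-310 and ALF-332, and for Hnrnpl NTG TRF-309 and TG TRF-307 (adjusted p between 0.0506 and 0.0553 for both genes). With the animals of ZT6 and ZT18 alone, 11 members were called, of which 9 are among the 12. The calls of Hnrnph3 (0.30, adjusted p = 0.0782), Srsf4 (0.15, adjusted p = 0.0995) and Hnrnpa3 (-0.13, adjusted p = 0.152) ended there, and Clk1 and Srsf7 were called. Hnrnpa3 was also not called with array weights (-0.07, adjusted p = 0.229), without the second library of NTG TRF-232 (-0.15, adjusted p = 0.0513) or with the Rn45s share as a covariate (-0.14, adjusted p = 0.0621). Without TG TRF-330, which had the lowest count, 8 members were called.

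**Figure D3:**
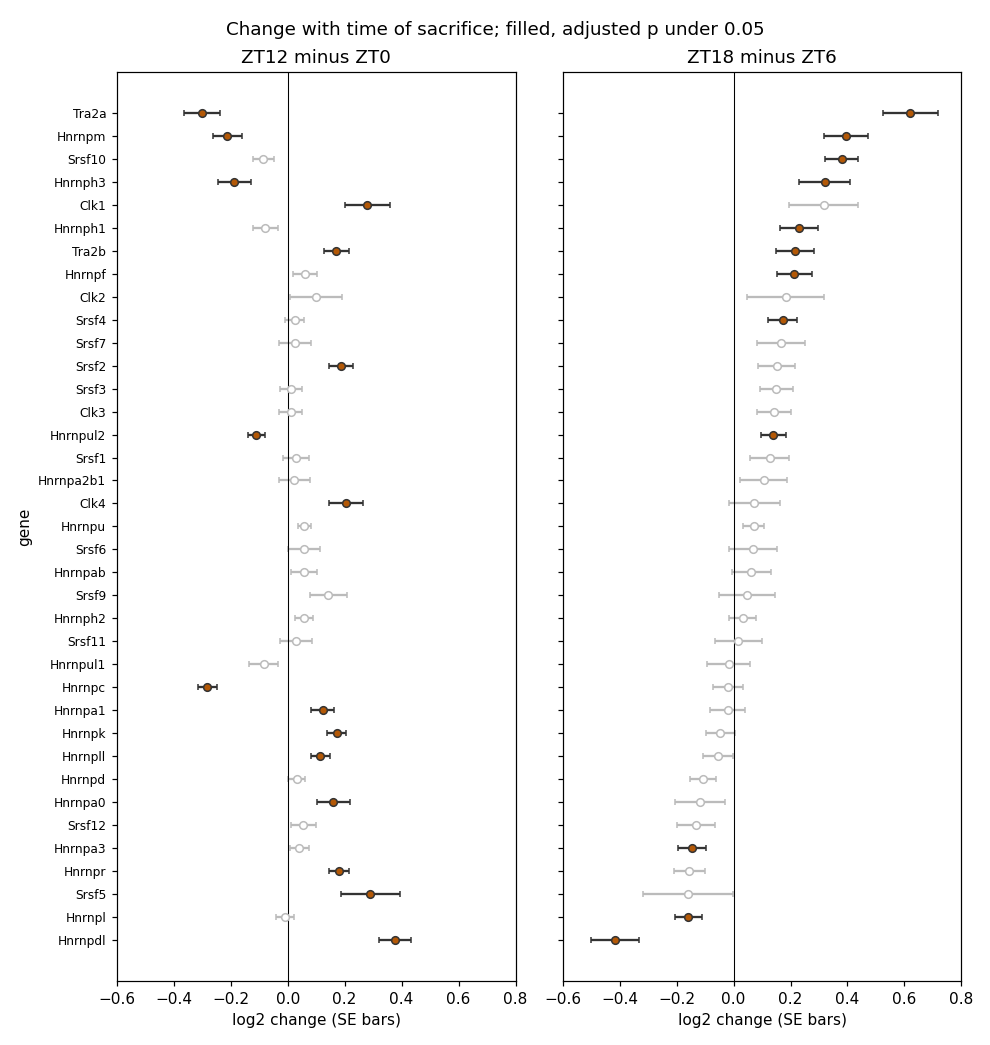
Log2 change of each of the 37 genes with its SE, at ZT12 minus ZT0 (left) and ZT18 minus ZT6 (right), ordered by the right panel; filled points passed adjusted p 0.05. Tra2a is at the top right with 0.62 and at -0.30 on the left, and Hnrnpdl is at the bottom right with -0.42 and at 0.38 on the left.

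The 2 comparisons set different animals against each other, but they came from the same fit. Animals of every time enter the group means and the spread used in each, so the 2 comparisons are not independent. Both called 6 members, which is 37.5% of the 16 called at ZT12 against ZT0 and 50% of the 12 called at ZT18 against ZT6. Over all genes these shares were 12.9% and 45%, so the second is near the background. Of these, 5 changed in opposite directions (Tra2a, Hnrnpdl, Hnrnpm, Hnrnph3 and Hnrnpul2), and Tra2b was higher at both ZT12 and ZT18. Over all genes, 516 were called in both and 449 (87.0%) of them had opposite directions, so the members' share of 83.3% is near the background.

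Within single groups, fewer members passed at ZT12 against ZT0. In TG on TRF, 1 of 37 was called, against 3.55% of all genes: Hnrnpc had a median of 6473 normalized counts at ZT12 (5915 to 6553, n = 5) and of 8275 at ZT0 (7657 to 9822, n = 6), with no overlap, and fell by 0.40 (SE 0.07, adjusted p = 0.000177). In TG on ALF, 2 were called, against 2.22% of all genes. Hnrnpc had a median of 6614 (6045 to 7302, n = 6) at ZT12 and of 8354 (7416 to 9076, n = 6) at ZT0, again with no overlap, and fell by 0.31 (SE 0.07, adjusted p = 0.00628). Hnrnpdl had medians of 6903 at ZT12 and 5006 at ZT0 there, with overlap, and rose by 0.44 ± 0.11 (adjusted p = 0.0202), a call that ended without TG ALF-13, ALF-16, ALF-5, ALF-125 or ALF-23, where Hnrnpc alone was called. In NTG on TRF, 1 was called, against 0.596%: Hnrnpc had a median of 6370 at ZT12 and 8099 at ZT0, with overlap, and fell by 0.30 (SE 0.07, adjusted p = 0.0152). That call ended without NTG TRF-8 or without NTG TRF-30. In NTG on ALF, 2 were called, against 2.17%: Hnrnpdl had medians of 6749 at ZT12 and 4997 at ZT0 and rose by 0.50 ± 0.11 (adjusted p = 0.00509), and Hnrnpk rose by 0.23 ± 0.07 (adjusted p = 0.0480). In 36 of 69 cases leaving out 1 animal left 1 of these calls. The animals of ZT12 and ZT0 did not overlap for 3 of 37 members in TG on TRF (Hnrnpc and Hnrnpm lower, Hnrnpr higher), against 2.64% of all genes. In TG on ALF this held for 1 member (Hnrnpc), against 2.28%, in NTG on TRF for 0, against 0.898%, and in NTG on ALF for 1 (Hnrnpk, higher), against 1.34%. Called in a group and not in another is not a difference between them: no member passed the test of feeding by time or of genotype by time (0 of 14260 genes passed either). Genes without any change reach an unadjusted p under 0.05 at a rate of 0.05. Of the 37 members, 2 did so for feeding by time (Hnrnph1 -0.20 ± 0.09 and Hnrnpm -0.21 ± 0.10, both adjusted p = 0.972). For genotype by time 1 did (Hnrnpc -0.14 ± 0.07, adjusted p = 0.989). These counts are no more than that rate could give.

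Genotype and feeding changed no member at an adjusted p of 0.05. For TG against NTG on TRF 0 of 37 passed, against 0.133% of all genes. For TG against NTG on ALF 0 passed, against 0.189%. For TRF against ALF 0 passed in TG, against 0.540%, and 0 passed in NTG, against 0.0281%. For genotype by feeding 0 passed, against 0 of all genes. At an unadjusted p under 0.05 by limma's test, the counts were 2, 0, 4, 0 and 2 of 37 members in that order. Over all 14260 genes they were 989, 1041, 2433, 1065 and 745, so the members' shares are near or below the background. Changes over the members ranged between -0.05 and 0.21 on TRF and between -0.09 and 0.10 on ALF for genotype, and between -0.05 and 0.19 in TG and -0.18 and 0.18 in NTG for feeding, while 95% intervals over all 4 comparisons reached from -0.38 to 0.44.

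Clk1 was the gene with the smallest p on TRF and for genotype by feeding. On TRF it ranged between 3457 and 5907 normalized counts in TG mice (median 4513, n = 18) and between 1961 and 5917 in NTG mice (median 4371, n = 16). The difference was 0.21 ± 0.09 (95% interval 0.02 to 0.40, adjusted p = 0.692), and the groups overlapped. On ALF it ranged between 2376 and 5495 in TG (median 4347, n = 19) and between 2859 and 5636 in NTG (median 4502, n = 16), with a difference of -0.09 ± 0.09 (adjusted p = 0.9997). The genotype by feeding term was 0.30 ± 0.13 (95% interval 0.04 to 0.56, adjusted p = 0.940). The other genes of smallest p were Hnrnph1 on TRF (medians 8616 in TG and 7659 in NTG, 0.11 ± 0.05, adjusted p = 0.717) and Srsf12 on ALF (medians 951 in TG and 932 in NTG, 0.10 ± 0.05, adjusted p = 0.709). Tra2b on ALF had medians of 2444 in TG and 2628 in NTG (-0.08 ± 0.05, adjusted p = 0.858), and it also had a genotype by feeding term of 0.15 ± 0.07 (adjusted p = 0.940). For feeding, Hnrnph2 had medians of 5669 in TG on TRF and 5406 in TG on ALF (0.09 ± 0.04, adjusted p = 0.219), and Hnrnpa0 of 6073 and 5484 in the same groups (0.14 ± 0.07, adjusted p = 0.275). In NTG the smallest p were those of Hnrnpr (medians 3544 on TRF and 3394 on ALF, 0.09 ± 0.04) and Hnrnph3 (medians 457 on TRF and 478 on ALF, -0.14 ± 0.07), both with an adjusted p of 0.692. At single times, 0 members passed for TRF against ALF at ZT12, against 0.00701% of all genes, with Hnrnph1 (-0.16 ± 0.07, adjusted p = 0.908) and Hnrnpc (-0.10 ± 0.05, adjusted p = 0.9997) first. At ZT0 0 members passed, against 0.0491%, with Hnrnph2 (0.11 ± 0.04, adjusted p = 0.190) and Srsf5 (0.40 ± 0.15, adjusted p = 0.191) first.

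**Figure D4:**
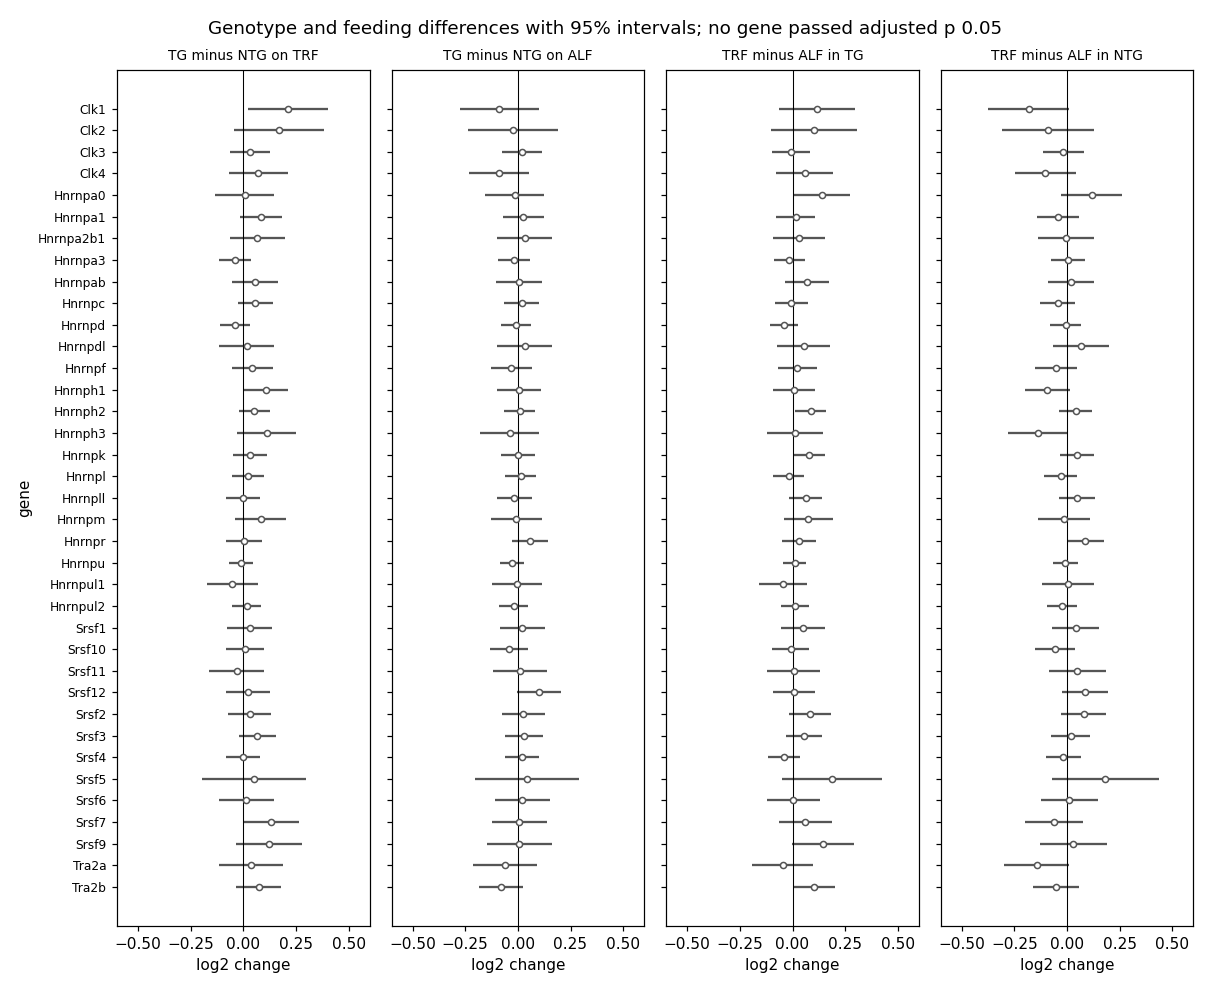
Log2 difference of each of the 37 genes with its 95% interval, for TG minus NTG on TRF and on ALF and for TRF minus ALF in TG and in NTG; no point passed adjusted p 0.05. Clk1 has 0.21 in the first panel and -0.09 in the second.

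The cold-inducible RNA-binding proteins Rbm3 and Cirbp, whose transcripts rise in cooled mammalian cells, gave a level to set the members against. Rbm3 rose by 0.97 ± 0.06 (adjusted p = 5.76e-20) and Cirbp by 0.88 ± 0.07 (adjusted p = 9.95e-16) at ZT12 against ZT0. At ZT18 against ZT6 Cirbp fell by 0.60 (SE 0.11, adjusted p = 9.22e-05), and Rbm3 had -0.03 ± 0.10 (adjusted p = 0.916). For TRF against ALF in TG, the changes of the pair were 0.28 and 0.34, with 1 of 2 called (smallest adjusted p = 0.0158). In NTG they were 0.31 and 0.37, with 0 called (smallest adjusted p = 0.118). No body temperature is given for any sample. Within group and time, the slope on the mean log2 level of both genes passed for 1 of 37 members, against 3.91% of all genes. That member was Hnrnpdl, with 0.46 ± 0.11 log2 units per log2 unit (adjusted p = 0.0210). Tra2a had -0.15 ± 0.15 (adjusted p = 0.509), Tra2b 0.13 ± 0.10 (adjusted p = 0.394), Clk1 -0.04 ± 0.19 (adjusted p = 0.896), Clk2 0.48 ± 0.19 (adjusted p = 0.114), Clk3 -0.01 ± 0.09 (adjusted p = 0.941) and Clk4 0.11 ± 0.14 (adjusted p = 0.634). The slope is an association in bulk tissue. The median slope was -2.40 over the 12 choroid plexus markers, of which none passed. Aqp1, Slc4a5 and Tmem72 were each at 0 in some animals, in 8 values in all. With the choroid plexus level as a covariate, the slope of Hnrnpdl was 0.47 (adjusted p = 0.0258). It was not called on Rbm3 alone (0.22, adjusted p = 0.325), with the number series as a covariate (0.34, adjusted p = 0.0888) or with array weights (0.40, adjusted p = 0.0687). The call of Hnrnpdl ended without NTG ALF-1 (0.42, adjusted p = 0.0592), TG ALF-234 (0.42, adjusted p = 0.0567) or TG TRF-307 (0.44, adjusted p = 0.0535).

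**Figure D5:**
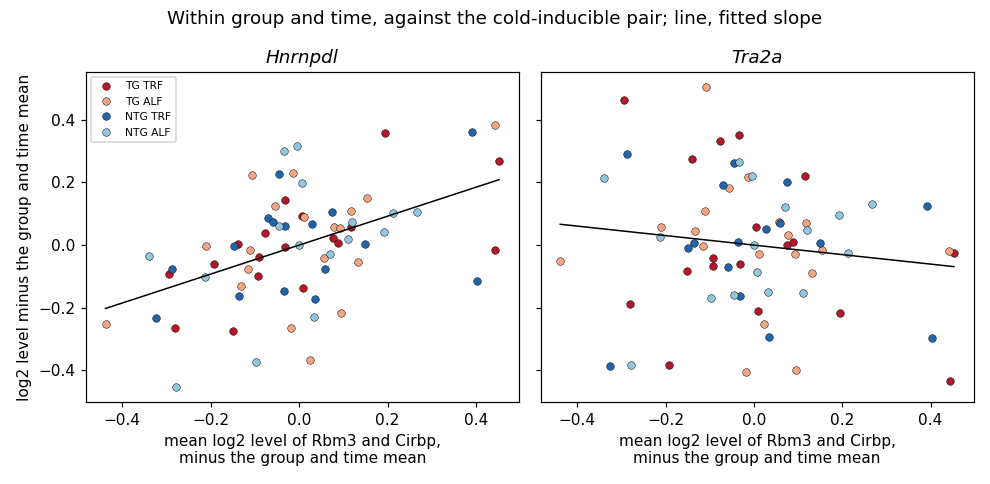
Log2 level of Hnrnpdl (left) and Tra2a (right) per animal against the mean log2 level of Rbm3 and Cirbp, each minus the mean of its group and time, with the fitted slope as a line. The slope is 0.46 for Hnrnpdl and -0.15 for Tra2a.

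Other genes of RNA splicing and decay were counted in lists. At ZT12 against ZT0, the shares called were 27.3% of SR kinases and partners, 25.9% of SR-related proteins, 28.6% of core spliceosome genes and 34.1% of the other regulators, near the 27.9% of all genes. At ZT18 against ZT6 they were 18.2%, 14.8%, 12.2% and 9.76% in that order, against 8.04%. Of 11 SR kinases and partners, 1 was higher and 2 were lower at ZT12 against ZT0: Ppp1r8, a nuclear inhibitor of a phosphatase (0.19 ± 0.04), Srpk1, the main cytoplasmic SR kinase (-0.16 ± 0.04), and Top1 (-0.11 ± 0.04). At ZT18 against ZT6 Top1 was higher (0.30 ± 0.07) and Cdk13 lower (-0.17 ± 0.06). Of 27 SR-related proteins, 4 were higher and 3 lower at ZT12, with Rnps1 (0.19), Luc7l2 (0.15) and Rsrp1 (0.45) first, and 4 were higher at ZT18, with Acin1 (0.44), Srrm3 (0.50) and Luc7l (0.29) first. Of 49 core spliceosome genes, 12 were higher and 2 lower at ZT12, and 2 higher and 4 lower at ZT18, where Prpf3 had 0.37. Of 41 neuronal and other regulators, 5 were higher and 9 lower at ZT12, with Khdrbs3 (-0.34) and Rbfox2 (-0.23) among them, and 4 were higher at ZT18, with Sfpq (0.32), Rbm10 (0.28) and Rbfox2 (0.28) first.

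The NMD and heat shock genes called in both comparisons, 3 of 15 and 6 of 17, all had opposite directions in them, near the 87.0% of all genes called in both. The share called was 40.0% of NMD and 64.7% of heat shock genes at ZT12 against ZT0, against 27.9% of all genes. At ZT18 against ZT6 it was 20.0% and 41.2%, against 8.04%. Of the 15 NMD genes, 1 was higher and 5 lower at ZT12, with Upf2 (-0.36 ± 0.06), Smg1 (-0.24 ± 0.06) and Smg6 (-0.17 ± 0.04) first, and 3 were higher at ZT18, namely Upf2 (0.34 ± 0.09), Smg5 (0.15 ± 0.04) and Smg1 (0.28 ± 0.08). Of 17 heat shock genes, 11 were lower and 0 higher at ZT12, with Stip1 (-0.38), Hsph1 (-0.41) and Dnaja4 (-0.30) first. At ZT18, 7 were higher and 0 lower, with Dnaja4 (0.39), Hspa1b (0.75) and Chordc1 (0.59) first. The median change was -0.20 over the heat shock list and 0.05 over the splicing factors at ZT12, and 0.21 and 0.07 at ZT18.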

How the data were processed

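Poly-A RNA of the hippocampus was sequenced in paired reads of 150 bases, per the labels' protocols. Reads were trimmed with Trimmomatic on Galaxy, per the labels' protocols, and HISAT2, featureCounts, DESeq2 and GRCm38 are named in the submitters' processing notes, without versions. The deposited values are a normalized signal per gene, in which the authors divided each library's read counts by 1 factor. Values were taken as log2 (normalized count + 1) and tested with limma 3.58.1 in R 4.3.3, 2-sided, with a variance trend and robust variances, adjusted over 14260 genes (14258 for the slope). Time, genotype and feeding came from 4 group means plus 3 time terms; changes within groups and at single times came from 16 means. Levels per kb used GENCODE M21, and near-identical transcripts came from BLAST 2.17.0. Libraries 232 and 232R were averaged as 1 animal, which the labels do not state. The members and lists were chosen with earlier results of these data known. Clk1 to Clk4 and the Tra2 genes were named throughout, with up to 10 called members per comparison, or the 2 of smallest p where none passed, and the 3 of smallest p per list, of which 1 is not reported here. The remaining called members of ZT12 against ZT0 and ZT18 against ZT6 are named beyond that. The models were tested on simulated data. Alternatives are in the closing section.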

Additional observations from a re-analysis of the deposited data

Results flagged for a closer look

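Of 100 sets of 4 to 7 animals of 1 group and time, over 10 genes, 2 held an animal far from the others, and chance flags about 1 in 20 sets. Tra2b had 1663 normalized counts in TG ALF-5 at ZT0, while the other 5 animals had between 2223 and 2474. Hnrnpc had 5915 normalized counts in TG TRF-121 at ZT12, while the other 4 animals had between 6429 and 6553.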

How the results depend on the processing

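Over the alternatives to the F test, ZT12 against ZT0 and ZT18 against ZT6, the number of members called stayed within 1.5 times the reported 25, 16 and 12. Leaving out 1 animal at a time gave 22 to 27, 15 to 18 and 8 to 12. No direction reversed. For genotype, feeding, their interaction, the time interactions and feeding at a single time, the count was 0 under every alternative run. Without the 5 libraries of lowest correlation, ZT12 against ZT0 gave 12 members, 10 of them among the reported 16. Within TG on TRF (1 reported) the count was 3 with array weights, 2 with the choroid plexus level, 3 with the myelin level, 2 with the number series and 2 with the Rn45s share as a covariate, 3 with choroid plexus and myelin levels together, and 1 to 3 leaving out 1 animal. Within TG on ALF (2 reported) it was 1 without the 5 libraries of lowest correlation and 1 to 3 leaving out 1 animal. Within NTG on TRF (1 reported) it was 0 to 1. Within NTG on ALF (2 reported) it was 1 with voom, 1 with the number series, 0 without the 5 libraries and 1 to 3 leaving out 1 animal. The slope (1 reported) gave 3 with a mean of at least 500, 3 with TMM factors, 0 with array weights, 7 with the myelin level, 0 with the number series, 0 with Rbm3 alone, 10 with Cirbp alone, 6 with choroid plexus and myelin levels, and 0 to 8 leaving out 1 animal. The covariate for choroid plexus with myelin, the set without animals numbered from 300 and the set of ZT6 and ZT18 only were chosen after seeing the data. These counts are of members only, without the share of all genes called under the same setting. They cannot be set against a background. The causes of these changes were not tested. edgeR and DESeq2, planned for recovered reads, were not run. All values were whole multiples of 1 step per library (within 0.01 steps), and voom was run on these multiples. No paired analysis was possible because animal numbers are not shared between groups. Counting error was not separated from the spread between animals.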
